A study of Arabidopsis thaliana with 40 samples.

Results

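The plastid genome of *Arabidopsis thaliana* contributed 133 of the 64790 features in the deposited tables, chosen as every gene whose identifier starts with ATCG. The rule used no measured value. The other features were 146 mitochondrial genes, 33322 nuclear genes and 31189 transposable elements. The study sequenced smRNAs (gel-selected inserts of 15 to 50 nt) and total RNA from unopened flower buds of 30-day-old soil-grown plants, kept under 16 h of light and 8 h of darkness, to find RNAs that feed RNA-dependent RNA polymerases (RDRs). The untreated plants were null mutants rdr1-1, rdr2-1, rdr3-1, rdr4-1, rdr5-1, rdr6-11, sgs3-11 and rdm12-1, set against wild-type Columbia-0 (Col-0), with 2 libraries per genotype and kind of RNA. SGS3 is a cofactor of RDR6 and RDM12 a cofactor of RDR2. The libraries numbered 40, of which 20 were smRNA and 20 total RNA. A second pair of Col-0 libraries of each kind was deposited with rdr3; the rdr3 total RNA labels name other control numbers than those Col-0 libraries carry.

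Each mutant had 5 tables, and the only value used here is the authors' mean level of a feature in log2 CPM, the counts of a library scaled to its total, which they averaged over libraries. This mean was identical, to a largest difference of 0, for every feature in the tables of the 7 mutants other than rdr3. It therefore described a common set of libraries, taken here as the 14 libraries of those mutants with their 2 Col-0 libraries. The rdr3 tables gave a second mean, over the rdr3 set of 4 libraries. No mutant can be set against Col-0 with these means, and they carry no replicate error, so none of the values below has an SD, an n of replicates or a test. The tables hold no counts, so the depth behind a value cannot be read from them. Where the rdr3 and common sets are both given, the rdr3 genotype and the library set cannot be told apart. Floral identity genes were present in the total RNA of both sets, at 2.13 to 3.83 log2 CPM in the rdr3 set and 3.24 to 4.91 log2 CPM in the common set for AP1, AP3, PI, AG and SEP3.

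Plastids are descended from a cyanobacterium and keep a small circular genome. It encodes subunits of the photosystems, of the cytochrome b6f complex, of the ATP synthase and of an NADH dehydrogenase-like complex, the large subunit of Rubisco, ribosomal proteins, ribosomal and transfer RNAs, and the core of a bacterial-type RNA polymerase. Genes lie in operons that are transcribed as long precursors and then cut and trimmed. Pentatricopeptide repeat and related proteins bound between genes can block exonucleases, and short RNAs left under such proteins are known from chloroplasts. RDRs act in the nucleus and cytoplasm and are not known as plastid enzymes. Buds hold few mature chloroplasts compared with leaves.

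The annotation of the plastid chromosome (RefSeq, TAIR10.1) held 131 genes: 87 protein-coding, 37 tRNA and 7 rRNA genes. It is 154478 bp long and has an inverted repeat, found here by exact matching, whose copies of 26264 bp lie at C:84171-110434 and C:128215-154478. RefSeq uses other identifiers than the deposited tables, and its notes tie only 6 of the 133 members to a product, so 127 members are counted without a name. Named plastid genes were read instead through the 309 plastid bins of 500 nt in the smRNA tables, which join the annotation by position. The number of bins is the number that the length of the reference plastid chromosome gives.

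The following sequences are shown because the bins that hold them were among those with the highest smRNA levels of their kind. The first lines give the start of the downstream protein gene in the gene spacer of 5 bins, with the first 3 coding bases in capitals and spacer bases before them in lower case, from RefSeq TAIR10.1. The lower-case part is 27 bases long, but 18 for rpl2, where it is the whole spacer. The windows are chrC:141458-141487 (plus strand) for ndhB, a subunit gene of the NADH dehydrogenase-like complex, chrC:69722-69751 (minus) for the first exon of rps12, chrC:65971-66000 (plus) for petG of the cytochrome b6f complex, chrC:123560-123589 (minus) for rps15 and chrC:152788-152808 (plus) for rpl2. The gene spacers that end at these starts were 313, 185, 190, 321 and 18 bp long in the same order.
ndhB: ttggagattggatgcagttactaattcATG
rps12: accagcccattatttatatgattccgtATG
petG: caaaaatgaaaacaaaagaaaattcaaATG
rps15: atattaaaaggggaaggatttctttttATG
rpl2: atcaaaatacttaatagcATG
The next lines give whole genes of structural RNAs, in lower case throughout because no part was singled out: 5S rRNA at chrC:130580-130700 (minus), 4.5S rRNA at chrC:130948-131050 (minus), the tRNA-Ser gene at chrC:44827-44913 (plus) and the tRNA-His gene at chrC:4-76 (minus).
5S rRNA: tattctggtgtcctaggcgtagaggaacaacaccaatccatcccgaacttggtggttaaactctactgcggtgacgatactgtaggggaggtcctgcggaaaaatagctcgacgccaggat
4.5S rRNA: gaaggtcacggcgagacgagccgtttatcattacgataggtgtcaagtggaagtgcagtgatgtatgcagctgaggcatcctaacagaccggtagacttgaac
tRNA-Ser: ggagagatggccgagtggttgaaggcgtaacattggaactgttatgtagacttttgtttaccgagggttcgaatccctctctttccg
tRNA-His: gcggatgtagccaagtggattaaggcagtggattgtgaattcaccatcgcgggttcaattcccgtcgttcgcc

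Plastid genes took a larger share of the total RNA than of the smRNA counted on features. On the sense strand they held 4.68% of the summed smRNA CPM of all features in the rdr3 set and 2.22% in the common set. In total RNA they held 8.54% in the rdr3 set and 9.04% in the common set. On the antisense strand the plastid share was 0.356% in the rdr3 set and 0.570% in the common set for smRNA, and 0.614% (rdr3 set) and 0.740% (common set) for total RNA. Features near the lowest value still add CPM to these sums. In total RNA antisense of the common set, 96.7% of nuclear genes and 99.2% of transposable elements lay within 0.5 log2 of it. Over features of at least 0 log2 CPM, the plastid share of total RNA antisense was 0.939% (rdr3 set) and 2.15% (common set). Mitochondrial genes held more than plastid genes in total RNA sense, with 18.5% in the rdr3 set and 21.9% in the common set. That share rested on few genes: the 2 highest held 95.5% of the mitochondrial CPM in the rdr3 set and 96.5% in the common set. The median mitochondrial gene was at −2.65 (rdr3 set) and −1.79 (common set) log2 CPM, below the median plastid gene given further on. With HTSeq's totals included, most of the smRNA sense CPM was in neither plastid nor mitochondrial genes. Alignments to several places, which the counting assigned to no feature, took 97.6% of it in the rdr3 set and 75.7% in the common set. The mapping allowed many alignments per read, so these need not be shares of reads.

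A few members carried most of the plastid total RNA. The 2 highest, ATCG00490 and ATCG00020, held 52.8% of the plastid sense CPM in the rdr3 set and 55.8% in the common set. ATCG00490 was at 11.88 log2 CPM in the rdr3 set and 12.39 in the common set, and ATCG00020 was at 11.07 (rdr3 set) and 12.04 (common set). In smRNA their sense levels were 3.27 for ATCG00490 and 2.78 for ATCG00020 in the rdr3 set, against 6.34 and 5.94 in the common set. The smRNA was spread differently over members in the 2 sets, since the 2 highest smRNA members held 56.9% of the plastid sense CPM in the rdr3 set and 28.0% in the common set.

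The median member was at −2.19 log2 CPM in smRNA sense in the rdr3 set and at 0.84 in the common set. In smRNA antisense the medians were −4.06 in the rdr3 set and −1.43 in the common set. In total RNA they were 3.24 in the rdr3 set and 3.01 in the common set for sense, and −1.22 (rdr3 set) and −1.26 (common set) for antisense. These medians were above those of nuclear genes in all of these tables: nuclear genes had medians of −4.96 (rdr3 set) and −2.96 (common set) in smRNA sense and −1.01 (rdr3 set) and −0.66 (common set) in total RNA sense. In the common set 62.4% of members had an smRNA sense level of at least 0 log2 CPM, against 7.41% of nuclear genes.

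**Figure D1:**
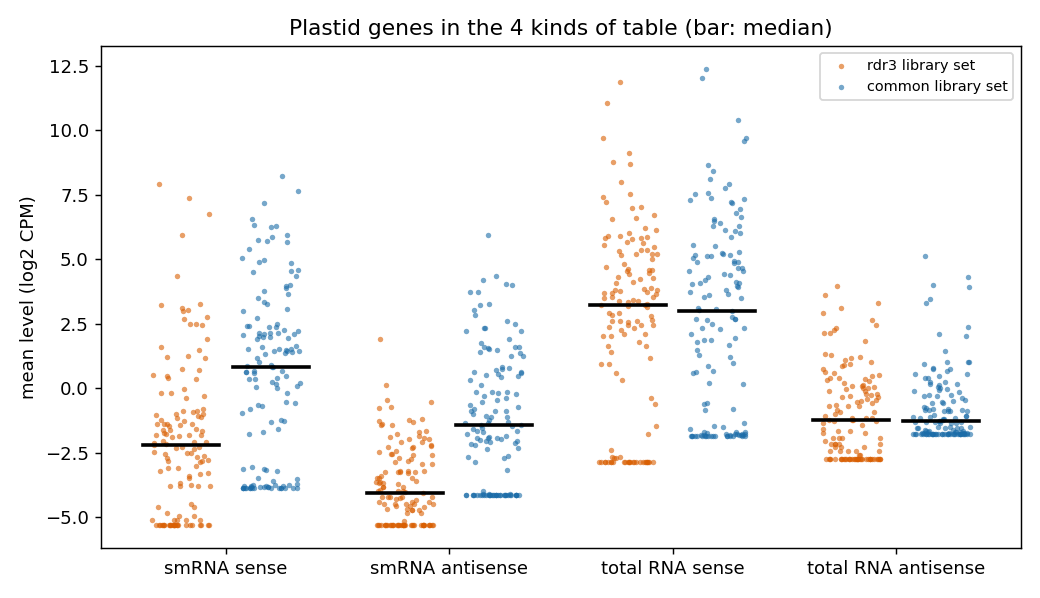
Mean level (log2 CPM, vertical axis) of each of the 133 plastid genes in the 4 kinds of table; orange points are the rdr3 library set, blue points the common library set and black bars medians. Total RNA sense had the highest medians (3.24 in the rdr3 set and 3.01 in the common set), and in each kind a group of members lay on the lowest value of the table.

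A group of members had almost no assigned reads. In the common set 31 members lay within 0.5 log2 of the lowest value of the table in all 4 kinds of table, in the rdr3 set 30 did, and 29 were the same in both. The annotation placed 33 of its 131 genes wholly inside a copy of the inverted repeat, where every read matches both copies. One member at the bottom has a name: ATCG01310, noted as ribosomal protein L2 (rpl2), a gene with a copy at C:84337-85843 and one at C:152806-154312. Its smRNA sense level was −5.28 in the rdr3 set and −3.86 in the common set, each equal to the lowest value in its table, and its total RNA sense level was −2.83 (rdr3 set) and −1.77 (common set). How the bins counted such reads is not given in the sources used here. The bin that holds the rpl23 end and rpl2 start in copy 1 was at 3.13 log2 CPM of smRNA in the rdr3 set and 8.33 in the common set, and its counterpart in copy 2 was at 3.14 (rdr3 set) and 8.34 (common set). These bins also hold part of rpl23. Bins wholly inside rpl2 in copy 1 were lower, with a median of −1.41 (rdr3 set) and 2.29 (common set). The lowest value of any bin was −5.36 (rdr3 set) and −4.19 (common set). The level near the bottom of the gene tables is thus not shared by the bins over the same gene.

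A further 3 of the named members described here had 1 copy each and a position in the annotation. clpP (ATCG00670), the proteolytic subunit of the Clp protease, had the highest total RNA sense level of these, 5.17 log2 CPM in the rdr3 set and 6.11 in the common set. rpl20 (ATCG00660), a protein of the large ribosomal subunit, was at 2.92 (rdr3 set) and 4.12 (common set), and cemA (ATCG00530), an envelope membrane protein, at 3.67 (rdr3 set) and 4.09 (common set). The order per length depended on the length used, since clpP has introns and the others do not. Per kb of coding sequence clpP had 60.7 CPM of total RNA sense in the rdr3 set and 117 in the common set, rpl20 21.3 (rdr3 set) and 49.1 (common set), and cemA 18.5 (rdr3 set) and 24.6 (common set). Over its whole gene of 1973 bp clpP had 18.2 CPM per kb in the rdr3 set and 34.9 in the common set, which is below rpl20. ATCG00430, noted as a photosystem II reaction center protein G, was not tied to a gene of the annotation, so no position is given. Whether the annotation holds this gene under another name was not checked, and neither was the note. ATCG00430 was at 3.56 (rdr3 set) and 4.31 (common set) log2 CPM in total RNA sense. Of the 5 named members described here, only ATCG00430 had an smRNA sense level in the common set, 5.05, that exceeded its total RNA level.

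The smRNA of rpl20 and cemA lay mainly on the antisense strand. rpl20 had −2.55 log2 CPM sense and −1.20 log2 CPM antisense in the rdr3 set, and 0.59 sense and 4.07 antisense in the common set, where only 3 of the 133 members had a higher antisense level. cemA had −2.27 sense and −1.27 antisense in the rdr3 set, and 0.21 sense and 3.04 antisense in the common set. Their total RNA had the other sign: rpl20 was at 2.92 sense and 0.95 antisense in the rdr3 set and at 4.12 sense and −1.09 antisense in the common set. clpP had more sense than antisense in both kinds of RNA, with smRNA differences (sense minus antisense) of 0.73 (rdr3 set) and 0.79 (common set) log2. On the 3′ side of rpl20 the annotation places rps18 and rpl33, further ribosomal protein genes, on the other strand. The neighbours of cemA, ycf4 and petA, lie on the same strand as cemA. The source of the antisense smRNA was not tested.

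**Figure D2:**
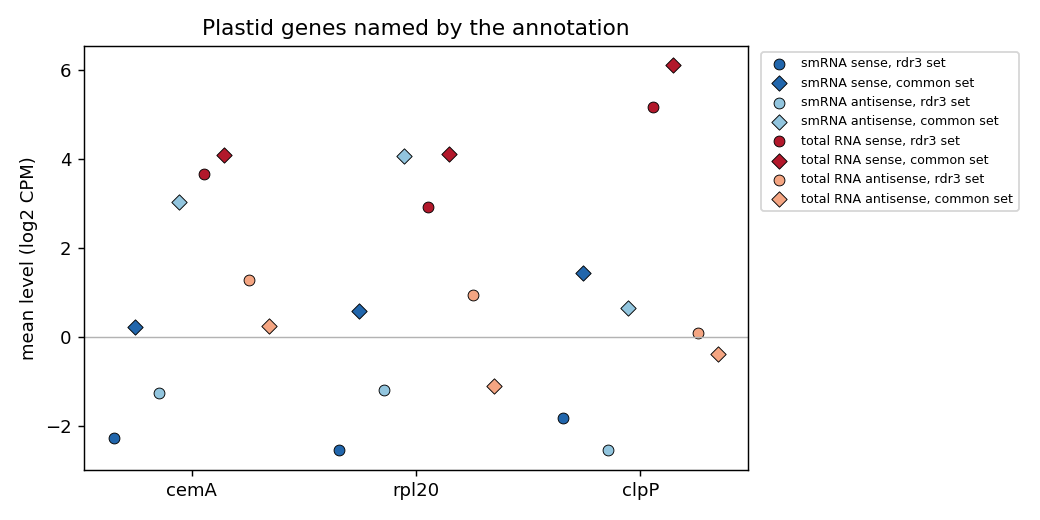
Mean level (log2 CPM, vertical axis) of 3 single-copy members that the annotation names and places; colours mark the kind of table, circles the rdr3 library set and diamonds the common library set. For cemA and rpl20 the pale blue antisense smRNA points lie above the dark blue sense ones, while for clpP they lie below.

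Over the members as a whole, sense exceeded antisense. In smRNA 27 of the 133 members reached 0 log2 CPM in sense and 2 in antisense in the rdr3 set, while 83 did in sense and 42 in antisense in the common set. In total RNA 98 members reached it in sense and 38 in antisense in the rdr3 set, and 92 in sense and 30 in antisense in the common set. The median difference over all members (sense minus antisense) was 1.19 log2 in the rdr3 set and 1.24 in the common set for smRNA, and 3.66 (rdr3 set) and 3.69 (common set) for total RNA. Among genes with at least 0 log2 CPM of smRNA on either strand, antisense was the higher strand in 2 of 29 plastid, 2 of 9 mitochondrial and 161 of 445 nuclear genes in the rdr3 set, and in 14 of 85 plastid, 2 of 33 mitochondrial and 703 of 2650 nuclear genes in the common set. The plastid share was thus 6.90% and the mitochondrial 22.2% in the rdr3 set, and 16.5% and 6.06% in the common set, so that their order was not the same in the 2 sets. The nuclear share was above both, at 36.2% in the rdr3 set and 26.5% in the common set. Sense and antisense tables were scaled separately. Centring on the reads that mapped to several places, chosen after the data were seen, left the plastid share in the rdr3 set at 6.90% and lowered it to 11.8% in the common set, and put the nuclear count at 160 of 445 in the rdr3 set and 367 of 2650 in the common set.

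Among members with at least 0 log2 CPM in either kind of RNA, 3 of 98 in the rdr3 set and 20 of 100 in the common set had a higher smRNA than total RNA sense level, against 0.186% of nuclear genes in the rdr3 set and 11.9% in the common set. The median smRNA minus total RNA difference was −5.81 log2 in the rdr3 set and −3.49 in the common set. Nuclear genes had medians of −5.74 (rdr3 set) and −3.94 (common set). On the antisense strand the sets went different ways: 0 of 38 members in the rdr3 set and 38 of 49 in the common set had more smRNA than total RNA, with medians of −2.78 in the rdr3 set and 1.02 in the common set. Nuclear genes did likewise on that strand, with 1.13% in the rdr3 set and 86.1% in the common set. The smRNA and total RNA tables were scaled separately. Across the 102 members that were not near the lowest value of all 4 kinds of table in the common set, smRNA and total RNA sense levels were related with a Pearson r of 0.55 (Spearman rho 0.59) in the rdr3 set and 0.18 (rho 0.21) in the common set. These are correlations across genes of the same libraries, and gene length is in both measures.

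Plastid bins had far more smRNA than nuclear bins of the same size. The median plastid bin was at −1.20 log2 CPM in the rdr3 set and 2.63 in the common set, the median mitochondrial bin at −3.16 (rdr3 set) and 0.12 (common set), and the median nuclear bin at −5.04 (rdr3 set) and −3.57 (common set). The 309 plastid bins held 0.488% of all bin CPM in the rdr3 set and 3.82% in the common set. The sets were thus in the other order than for plastid genes in smRNA sense, at 4.68% (rdr3 set) and 2.22% (common set). The gene shares leave out alignments to several places, so which set had the larger plastid share of smRNA is not settled. Bins carry no strand, and how reads with several alignments were counted in them is not given in the sources used here.

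Bins that overlap genes of structural RNAs held most of the smRNA of the plastid bins. Any overlap put a bin in these classes, so they also take in spacers and parts of protein genes. Where in a bin the reads lie is not known. The 22 bins with an rRNA gene held 56.4% of the plastid bin CPM in the rdr3 set and 39.5% in the common set, and the 47 further bins with a tRNA gene held 28.4% (rdr3 set) and 32.0% (common set). The median rRNA bin was at 5.32 log2 CPM in the rdr3 set and 8.78 in the common set, and the median tRNA bin at 2.83 (rdr3 set) and 7.19 (common set). All of the rRNA bins were at 7.97 or more in the common set, whereas tRNA bins ranged from 1.90 to 11.79. The bin with the 5S gene and part of the 4.5S gene, both printed above, was at 10.43 in the rdr3 set and 12.33 in the common set. Its counterpart in repeat copy 1 was at 10.36 (rdr3 set) and 12.20 (common set). These 2 bins alone held 22.2% and 21.1% of the plastid bin CPM in the rdr3 set, against 9.25% and 8.43% in the common set. The bin with the tRNA-Ser gene and one end of ycf3, which encodes a photosystem I assembly factor, was at 6.80 (rdr3 set) and 11.79 (common set). The bin with the tRNA-His gene and the end of psbA, the gene of the photosystem II D1 protein, was at 7.28 (rdr3 set) and 10.59 (common set).

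Outside the bins with an rRNA or tRNA gene, smRNA was higher where a bin held the edge of a protein gene than where it lay inside one. The 98 bins with an edge had medians of −1.17 log2 CPM in the rdr3 set and 2.79 in the common set, the 118 bins inside a gene −2.13 (rdr3 set) and 1.52 (common set), and the 24 bins with no gene −2.45 (rdr3 set) and 1.19 (common set). Edge bins thus exceeded inside bins by a median of 0.97 log2 in the rdr3 set and 1.27 in the common set. The classes hold different genes: long genes give many inside bins, such as the 13 in each copy of ycf2, and many short genes give none. Gene and position are therefore not told apart in this difference. Edge bins held 14.2% of the plastid bin CPM in the rdr3 set and 26.9% in the common set, while the more numerous inside bins held 0.754% (rdr3 set) and 1.21% (common set). The inside bins so classed reached at most 2.20 in the rdr3 set and 6.07 in the common set, both inside psbA. Bins inside matK are not among them, because matK lies within the trnK gene and its bins were classed as tRNA bins. The higher bin inside matK was at 1.67 (rdr3 set) and 7.19 (common set).

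**Figure D3:**
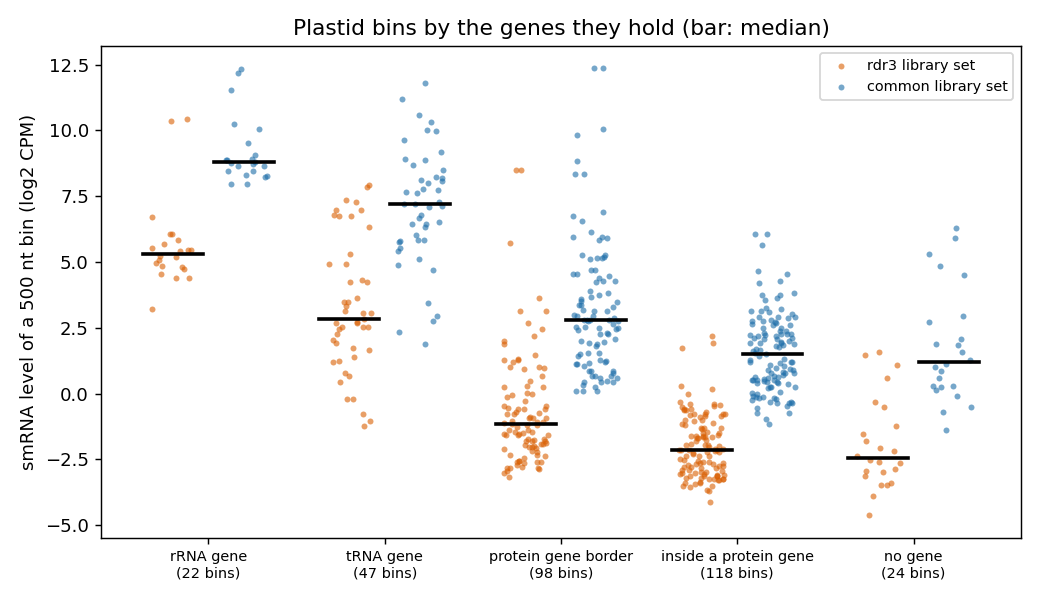
smRNA level (log2 CPM, vertical axis) of the plastid bins of 500 nt, grouped by the genes they hold; orange points are the rdr3 library set, blue points the common library set and black bars medians. In both sets rRNA bins were highest (medians of 5.32 in the rdr3 set and 8.78 in the common set), and edge bins of protein genes included single bins far above their median.

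A few edge bins accounted for much of the edge signal. The spacer between rps7 and ndhB lies within 1 bin in each repeat copy, and both of these bins were at 8.50 log2 CPM in the rdr3 set and 12.36 in the common set. They were the highest of all plastid bins in the common set and held 9.42% of the plastid bin CPM each, against 5.80% each in the rdr3 set. The bin with the spacer between rps12 and clpP was at 3.64 (rdr3 set) and 10.04 (common set), the bin with the petL to petG spacer at 5.71 (rdr3 set) and 9.84 (common set), and the bin with the rps15 to ycf1 spacer at 2.18 (rdr3 set) and 8.83 (common set). The spacers fill only part of their 500 nt bins, at the lengths given above, and the tables do not place the reads within a bin. Bins wholly inside 2 of the adjoining genes were far lower: the median bin inside ndhB was at −1.60 (rdr3 set) and 2.15 (common set) in copy 1, and the median bin inside clpP was at −2.82 (rdr3 set) and 0.71 (common set). Next in the common set came the rpl2 and rpl23 bins of both repeat copies, at the levels given above. After them came the bin with the end of rbcL, at 2.67 (rdr3 set) and 6.89 (common set). The bin with psbT, psbN and psbH, small proteins of photosystem II, was at 1.45 (rdr3 set) and 6.76 (common set). The start of petA, which encodes cytochrome f, followed at 2.46 (rdr3 set) and 6.57 (common set).

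By gene group, bins lying wholly inside a gene ranked the Rubisco large subunit first among protein genes. The 2 bins inside rbcL had a median of 1.84 log2 CPM in the rdr3 set and 5.85 in the common set. Photosystem II genes (6 bins) had −0.21 (rdr3 set) and 3.30 (common set), photosystem I genes (7 bins) −0.90 (rdr3 set) and 2.59 (common set), and ATP synthase genes (5 bins) −1.32 (rdr3 set) and 2.23 (common set). NADH dehydrogenase genes (19 bins) had −2.00 (rdr3 set) and 2.08 (common set), cytochrome b6f genes (5 bins) −0.60 (rdr3 set) and 1.99 (common set), and ribosomal protein genes (9 bins) −1.78 (rdr3 set) and 1.86 (common set). The other protein genes, ycf1, ycf2, matK and accD among them (48 bins), had −2.49 (rdr3 set) and 1.10 (common set). Here the bins inside matK were counted by position and not as tRNA bins. RNA polymerase genes (19 bins) were lowest, with −3.20 (rdr3 set) and −0.17 (common set). Of these, the single bin inside rpoA, the alpha subunit gene, was at 0.28 (rdr3 set) and 4.22 (common set), while the bins inside rpoB, rpoC1 and rpoC2 had medians of −3.38, −3.26 and −3.11 in the rdr3 set and −0.33, −0.34 and 0.16 in the common set. The order of the groups rests on few bins, and neighbours in it overlapped: photosystem I bins ran between 1.82 and 3.09 in the common set and ATP synthase bins between 0.52 and 2.37. The lowest plastid bin of all, at −4.63 (rdr3 set) and −1.38 (common set), held no annotated gene, and the next in the common set lay in rpoC1 (−1.15) and rpoB (−0.98).

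The inverted repeat, which includes the rRNA operon, held most of the smRNA of the plastid bins when both copies were summed. Repeat copies 1 and 2 held 39.4% each of the plastid bin CPM in the rdr3 set, and 38.8% and 38.1% in the common set. The large single-copy region held 20.8% in the rdr3 set and 21.5% in the common set, and the small single-copy region 0.300% (rdr3 set) and 1.56% (common set). Without rRNA and tRNA bins, the median of the repeat bins was −1.68 in the rdr3 set and 1.95 in the common set, and that of the single-copy bins −1.85 (rdr3 set) and 1.94 (common set). A read from within the repeat matches both copies, and how such reads were counted in bins is not given in the sources used here, so these sums may hold it in each copy. With copy 2 left out, which was tried after the data were seen, the repeat held 65.1% in the rdr3 set and 62.7% in the common set, and the rps7 and ndhB bin 9.57% (rdr3 set) and 15.2% (common set). The rRNA and tRNA bins together then held 85.1% in the rdr3 set and 70.6% in the common set. The copies are for the same reason not separate measurements. Over 51 pairs of mirrored bins, which share 352 of 500 bases, the median absolute difference was 0.264 log2 in the rdr3 set and 0.275 in the common set, and 40 pairs lay within 1 log2 in each set. The pair with the widest gap in the common set held parts of the trnA gene, at 6.02 in copy 1 and 11.20 in copy 2. The copy 1 bin lies inside trnA, while the copy 2 bin also holds bases beyond its end. The next bin of copy 1 along trnA was at 11.53.

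**Figure D4:**
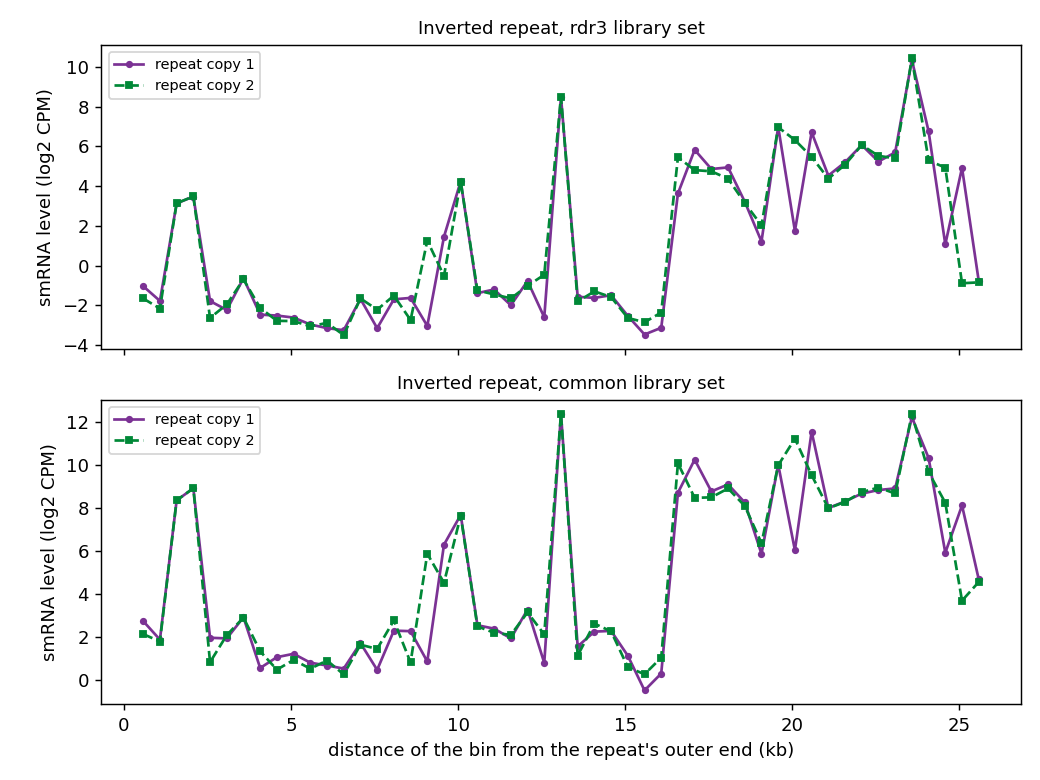
smRNA level (log2 CPM, vertical axis) of mirrored 500 nt bins against their distance from the outer end of the inverted repeat (kb), with copy 1 as a solid purple line and copy 2 as a dashed green line; upper panel the rdr3 library set, lower panel the common library set. The isolated peak is the bin with the rps7 to ndhB spacer (8.50 in the rdr3 set and 12.36 in the common set) and the plateau to its right is the rRNA operon.

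The 2 library sets ranked the members alike in smRNA, with a Spearman rho of 0.97 on the sense strand over the same 102 members, and the plastid bins alike (rho 0.97 over 309 bins). The difference between the sets (rdr3 set minus common set) had a median of −3.05 log2 on each strand of the members and of −3.65 over the bins. Nuclear genes with at least 0 log2 CPM in either set had a median smRNA sense difference of −3.55, and the share of alignments to several places was higher in the rdr3 set, as given above. The part of that share in the difference was not tested.

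A small group of members broke the pattern in total RNA. In total RNA sense the median difference was −0.51 log2 (rdr3 set minus common set), but 12 of 102 members were over 2 log2 higher in the rdr3 set, 11.8%, against 4.52% of the nuclear genes with at least 0 log2 CPM in either set. The 2 shares rest on different filters. ATCG00060 had the widest gap, with 5.23 log2 CPM in the rdr3 set and −0.85 in the common set. ATCG00110 was at 3.38 (rdr3 set) and −1.49 (common set). The same members were rich in smRNA: in the common set the smRNA sense levels of the 12 ran from 1.52 to 8.23 with a median of 5.70, against a median of 1.45 for the other 90 members. All 12 had more smRNA than total RNA on the sense strand in the common set. The 12 were chosen by their total RNA gap, so that the last count is partly fixed by the choice.

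**Figure D5:**
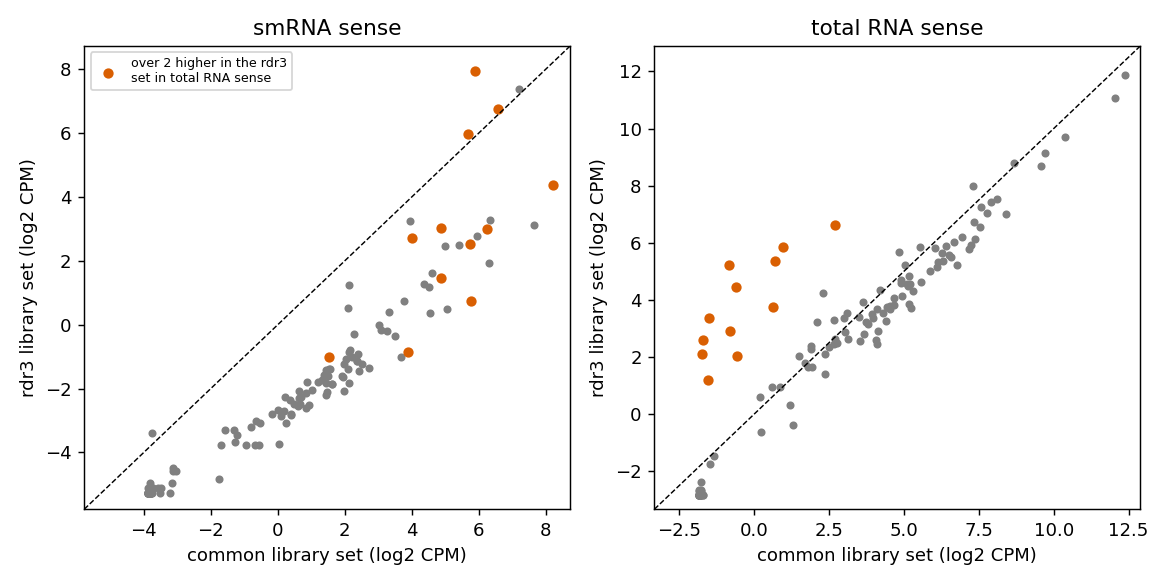
Mean level of each plastid gene (log2 CPM) in the rdr3 library set (vertical axis) against the common library set (horizontal axis), for smRNA sense on the left and total RNA sense on the right; orange points are the 12 members over 2 log2 higher in the rdr3 set in total RNA, and the dashed line marks equal levels. Most smRNA points lie below the line, while in total RNA the orange group stands above it.

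Over the bins, the difference between the sets spread widest for tRNA bins and edge bins. Of all 309 bins, 3 were higher in the rdr3 set. Those were 2 adjoining bins around trnG and trnfM, at 7.86 and 7.93 log2 CPM in the rdr3 set against 6.77 and 7.77 in the common set, and the bin at the limit of rpoC1 and rpoB, at 1.02 against 0.59. Of the 2 bins over the trnL gene of the large single-copy region, 1 was at 7.37 against 7.72 and the other at 2.83 against 7.11. The trnD bin was at 6.76 against 8.00. At the other end, the bins with the rps15 to ycf1 and rps12 to clpP spacers had differences of −6.65 and −6.40 log2. tRNA bins as a class differed by a median of −4.03 log2, protein edge bins by −3.87, rRNA bins by −3.58, inside bins by −3.55 and bins with no gene by −3.44.

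A list of 12 nuclear genes for plastid transcription and Rubisco was read in total RNA. The 6 sigma factors SIG1 to SIG6, which direct the plastid-encoded polymerase to promoters, ran between 0.58 and 2.02 log2 CPM in the rdr3 set and between 1.00 and 2.82 in the common set. The nucleus-encoded polymerase RPOTp was at 2.37 (rdr3 set) and 3.16 (common set), and RPOTmp, which acts in plastids and mitochondria, at 1.06 (rdr3 set) and 1.39 (common set). RBCS1A, a small subunit gene of Rubisco, was at 7.79 (rdr3 set) and 8.25 (common set), and only 20 nuclear genes were higher in the common set. RBCS3B was at 6.58 (rdr3 set) and 6.64 (common set), RBCS2B at 4.15 (rdr3 set) and 4.62 (common set) and RBCS1B at 3.67 (rdr3 set) and 3.65 (common set). These near-identical genes can share reads, so their order is uncertain. Of these 12 nuclear genes, RBCS1B was the one whose level was not lower in the rdr3 set.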

How the data were processed

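Per the labels and the methods of the study, the authors trimmed adapters with cutadapt, mapped reads to TAIR10 with TopHat (2 mismatches and up to 100 alignments per read), counted reads per gene and transposable element with HTSeq by strand (sense and antisense), counted smRNA reads per 500 nt bin with bedtools, and tested every mutant against its Col-0 libraries with edgeR. Versions are not given in the sources used here. Each of the 40 deposited tables holds the authors' mean log2 CPM of a feature over libraries. It also holds the authors' own comparison (fold change, p-value and false discovery rate), which was not used, so no mutant effect is reported. No sample columns were left unused, since the tables hold none. Antisense partners and overlapping genes were separated only as far as the strand-specific counting did so.

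Here the mean log2 CPM was read for the plastid members, for all other features and for bins (Python 3.11.15, pandas 2.3.3, numpy 2.4.6, matplotlib 3.10.9). Shares are ratios of CPM summed as powers of 2, without the 5 totals that HTSeq adds. Members were called near the lowest value within 0.5 log2. Strand differences were counted over members with at least 0 log2 CPM on either strand. Bins were joined to RefSeq TAIR10.1 by position, since both have the same number of plastid bins; an rRNA gene took precedence over a tRNA gene and a tRNA gene over a protein gene in classing a bin. Values are means without replicates and no test was made. The repeat search, the classing of bins, the summing of CPM and the sorting of identifiers were tested on small made-up inputs, and the other steps were not. The rule for named genes took the members with the highest levels and widest differences and a fixed list of plastid genes; without names for 127 members it could be followed only for named genes, through bins, and at most 4 unnamed identifiers are printed. Of the 6 members with a name, 1 is not reported here. The members and gene lists were chosen with earlier results of these data known.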

Additional observations from a re-analysis of the deposited data

How the results depend on the processing

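The tables give no depth and each value is 1 mean, so a value was taken as unmoved within 1.5-fold (0.58 log2). Of 79 recomputed values 35 could not move, because the 7 tables hold the same means. Of the other 44, 21 were unmoved, 17 moved and 6 changed sign. With HTSeq's totals in the denominator the plastid share fell to 0.174% (smRNA sense), 0.0211% (smRNA antisense), 1.67% (total RNA sense) and 0.0191% (total RNA antisense). In the rdr3 tables the smRNA shares were 4.68% sense and 0.356% antisense. Over features of at least 0 log2 CPM the total RNA antisense share was 2.15%, and the median member was at 2.13 (smRNA sense), 1.60 (smRNA antisense, a change of sign), 4.54 (total RNA sense) and 0.79 (total RNA antisense, a change of sign). In the rdr3 tables the median member was at −2.19 in smRNA sense, a change of sign, and at −4.06 in smRNA antisense, and the median bin was at −1.20, also a change of sign. Bins without rRNA or tRNA genes, an alternative added after seeing the data, had a median of 1.97. The median sense minus antisense difference was 2.27 (smRNA) and 4.81 (total RNA) over members of at least 0 log2 CPM, 2.70 in total RNA after centring on nuclear genes, and 1.84 in smRNA after centring on reads with several alignments. The median smRNA minus total RNA difference was 0.18 (sense) and 1.62 (antisense) after centring on nuclear genes, both a change of sign, and −4.91 and −2.55 in the rdr3 tables. The cause of these shifts was not tested, except where the construction gives it (fewer features, another denominator). Not run were members outside the inverted repeat, levels per kb for all members, both of which need names for the identifiers, and leaving out replicates, which needs values per library. No paired analysis was possible because each table holds 1 mean over libraries and the library numbers pair no samples.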
